A study of Mus musculus with 4 samples.

Results

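Genes that restrain the growth kinase complex mTORC1, or that belong to the folliculin arm of the same pathway, were examined in BEKO cells, a line of mouse thymic lymphoma, at high and at low cell density. The 10 genes are Ddit4, Sesn1, Sesn2, Sesn3, Tsc1, Tsc2, Deptor, Flcn, Fnip1 and Rragd, matched by symbol. They were chosen with earlier results of these data known, and all 10 were found among the 25630 rows of the table. The high density group and the low density group each hold 2 libraries of total RNA from the same line, and the labels give all 4 the genotype WT and name no added agent. No cell number, medium or culture time is given for either density, and the labels do not say whether the libraries were grown separately. The p-values therefore speak only of the spread from library to library, which may be technical.

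mTORC1 is a kinase complex on the lysosome that drives protein synthesis and growth when amino acids, growth factors and energy are in supply. The TSC complex switches off its activator Rheb, and REDD1, the product of Ddit4, acts through TSC when oxygen is low or when glucocorticoids are present. Sestrins restrain it through the GATOR complexes that control the Rag GTPases, DEPTOR binds the kinase itself, and folliculin with its partner FNIP1 sets the nucleotide state of RagC and RagD, which lets mTORC1 hold the transcription factors TFEB and TFE3 out of the nucleus. In thymocytes and T cells this circuit couples nutrient supply to growth and division.

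Ddit4, Fnip1 and Rragd were the members that passed the test, and the 300 bases around their start sites are given first because these genes rose together. The sequences are from RefSeq, build GRCm38.p6, and run 5′ to 3′ on the strand of each gene from 250 bases before the start to 50 after it. That build is not the one named in the submitters' notes, and the expression values do not depend on these coordinates. The windows are chr10:59951721-59952020 on the minus strand for Ddit4, chr11:54437929-54438228 on the plus strand for Fnip1 and chr4:32982748-32983047 on the plus strand for Rragd. Capitals mark, on either strand, the core letters of the hypoxia response element (ACGTG or GCGTG) and the E-box CACGTG, to which TFEB and TFE3 bind.
Ddit4: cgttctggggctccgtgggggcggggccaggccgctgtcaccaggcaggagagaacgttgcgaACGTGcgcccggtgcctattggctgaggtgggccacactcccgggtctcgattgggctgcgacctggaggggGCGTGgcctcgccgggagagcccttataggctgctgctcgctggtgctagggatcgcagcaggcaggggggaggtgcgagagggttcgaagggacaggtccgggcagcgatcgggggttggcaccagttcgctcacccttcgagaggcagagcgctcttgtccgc
Fnip1: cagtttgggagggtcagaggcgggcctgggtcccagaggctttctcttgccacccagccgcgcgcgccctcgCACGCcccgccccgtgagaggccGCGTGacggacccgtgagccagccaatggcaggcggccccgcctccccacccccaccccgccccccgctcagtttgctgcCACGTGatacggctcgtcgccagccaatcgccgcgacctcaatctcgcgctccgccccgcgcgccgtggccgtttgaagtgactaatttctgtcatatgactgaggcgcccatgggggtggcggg
Rragd: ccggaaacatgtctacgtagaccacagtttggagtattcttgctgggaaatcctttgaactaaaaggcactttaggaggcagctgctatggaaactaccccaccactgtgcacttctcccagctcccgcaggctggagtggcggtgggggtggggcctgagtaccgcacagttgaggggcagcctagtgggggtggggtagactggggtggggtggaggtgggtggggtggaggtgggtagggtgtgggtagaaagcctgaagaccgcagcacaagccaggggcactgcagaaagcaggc
The Ddit4 window holds 1 ACGTG and 1 GCGTG. In the Fnip1 window there are 2 GCGTG, and a single CACGTG that contains both of its ACGTG matches, since that E-box reads the same on both strands. None of these letters is in the Rragd window. Among the members that did not pass the test, the windows of Tsc1, Tsc2 and Flcn each hold a single GCGTG and 1 of the 2 Sesn1 windows holds 2, while ACGTG and CACGTG were found in none of them. Of 32851 windows of this length in the reference, 43.8% hold ACGTG or GCGTG and 7.15% hold CACGTG. The searches for TGATGNAA, a C/EBP-ATF composite site, and AGAACA, a glucocorticoid half-site, found no match in any member's window, while 3.97% and 19.0% of all windows hold them, and GTAAACA, a FOXO site, was found in 1 of the 2 Sesn1 windows and in 3.65% of all windows. RefSeq windows were at hand for 9 of the 10 members, all but Deptor, and each of these 10 windows lay above the median GC content of 52.7%, at 56.7% to 71.0%. A match of letters is a description of the window and not a binding site.

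Values are TPM, transcript abundance per length, scaled by the authors to the same total in every library, and means stand with their SD (n = 2 in each group). Read totals are not known from TPM. In bulk RNA, fewer cells of a type and less RNA per cell cannot be told apart. Tested rows had a median log2 value of 5.02 and 5.34 in the high density libraries, against 5.05 and 4.94 in the low density libraries, and the correlation between libraries was 0.961 within high density, 0.983 within low density and 0.935 to 0.941 between the groups. High density library 2 thus stood above the others in its median, and the median log2 fold change of all 10936 tested rows was 0.12. T lineage markers were present throughout, the 8 genes summing to 6660 and 6140 TPM at high and 6490 and 6090 TPM at low density, while B cell and epithelial markers summed to under 2 TPM in each library and erythroid markers to between 2.54 and 4.14 TPM. Myeloid markers summed to 16.1 and 12.1 TPM at high and 8.50 and 6.62 TPM at low density, nearly all from the integrin gene Itgam, with Lyz2 and Cd14 at 0 throughout. Stromal and endothelial markers summed to 48.2 and 37.9 TPM at high and 107 and 52.1 TPM at low density. Most of each sum was Pecam1, at 47.9 and 37.4 TPM at high and 62.5 and 51.8 TPM at low density, with Cdh5 at 0 throughout. Low density library 1 alone held the collagen transcript Col1a1, at 30.3 TPM, against 0.172 and 0.236 TPM at high density and 0 TPM in low density library 2, and the part of this in the results was not tested.

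Across the members, 3 of 10 rose at high density and 0 fell (limma, Benjamini-Hochberg adjusted p under 0.05 over all tested rows). In the whole table, 6.68% of tested rows were called, 4.57% higher and 2.11% lower. An unadjusted p under 0.05 (limma) was found for 5 members and for 2569 of the 10936 tested rows. The median log2 fold change of the members was 0.62. Since the members were chosen with earlier results of these data known, their excess over the whole table is not a test of the list. The libraries of the groups did not overlap for 8 members, 7 of them higher and Tsc2 lower, where 54.7% of all tested rows had no overlap. The members' median log2 fold change was 0.74 or 0.43 without high density library 1 or 2. It was 0.68 or 0.47 without low density library 1 or 2. Over all tested rows the same medians were 0.27 or −0.02, and 0.18 or 0.07. With each library centred on its median 0 members were called by limma. After this centring 5 members had an unadjusted p under 0.05 (limma), and so had 3087 of all tested rows. The number was that of the data as deposited, but Tsc2 (log2 fold change −0.44 after centring) stood in the place of Flcn (0.42).

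**Figure D1:**
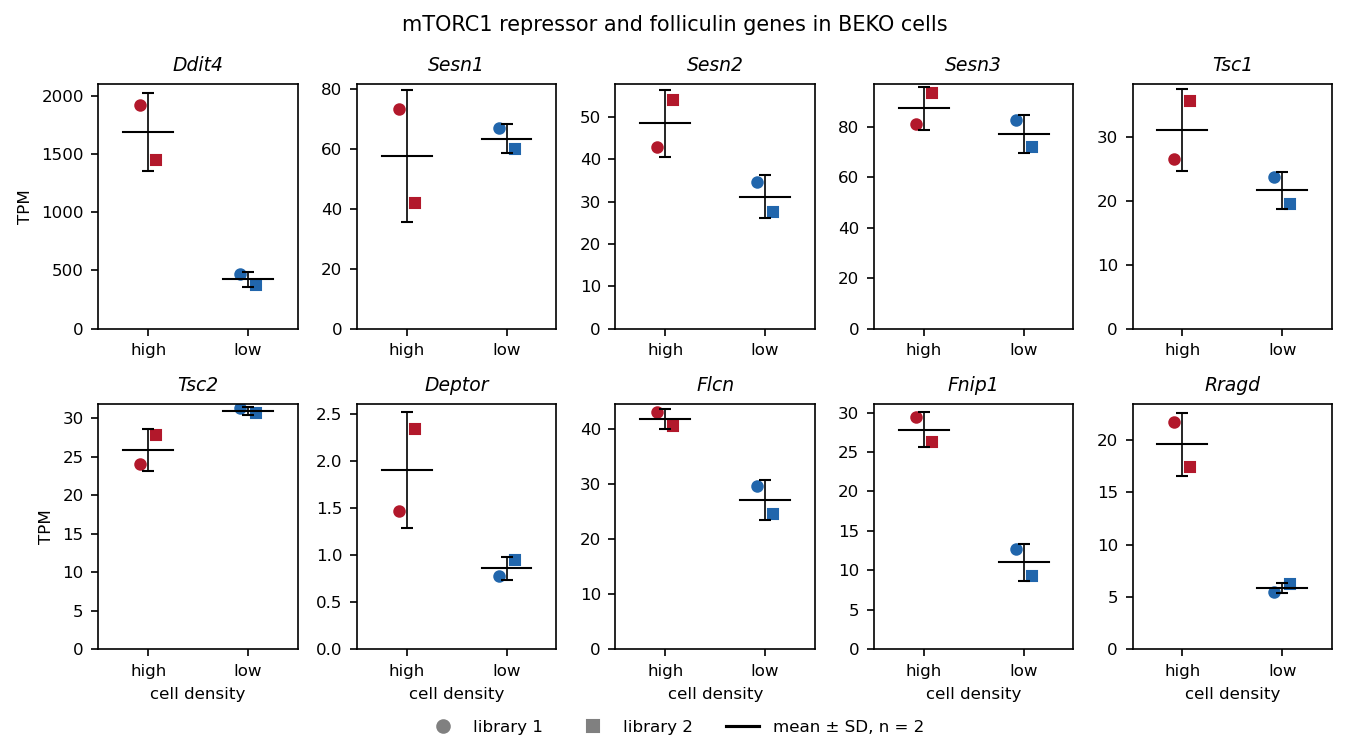
TPM of each of the 10 genes (vertical axes, starting at 0 and differing between panels) in the high and low density libraries, with circles for library 1, squares for library 2 and lines for the mean ± SD of 2 libraries. Ddit4, Fnip1 and Rragd show wide gaps between the densities, while the points of Sesn1 and Sesn3 overlap.

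Ddit4 encodes REDD1, a stress-induced protein that activates the TSC complex. Its RNA was at 1923 and 1449.8 TPM in the high density libraries, against 471 and 375 TPM in the low density libraries. The groups lay far apart, with the lower high density value about 3 times the upper low density value. Mean TPM was 1686 ± 335 at high density, against 423 ± 67.6 at low density, a 3.99-fold rise (log2 fold change 1.99 ± 0.24 SE, limma adjusted p = 0.00108). By level Ddit4 was the 43rd and 52nd most abundant row of the table in the high density libraries, against the 286th and 388th in the low density libraries. Only 1.06% of tested rows had a larger log2 fold change. Leaving out any single library kept the call, with ratios of 3.43 to 4.55. After median centring the adjusted p was 0.0522 with a log2 fold change of 1.80.

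REDD1 acts through tuberin and hamartin, the products of Tsc2 and Tsc1, which together form the core of the TSC complex. Neither gene passed the test. Tsc1 was at 26.6 and 35.6 TPM at high density, against 23.8 and 19.6 TPM at low density (log2 fold change 0.49 ± 0.28 SE, limma adjusted p = 0.317). Tsc2, whose protein holds the catalytic domain, was at 24.0 and 27.9 TPM at high density, against 31.3 and 30.7 TPM at low density (log2 fold change −0.25 ± 0.26 SE, limma adjusted p = 0.609). Points of each gene were apart by density, with Tsc1 above and Tsc2 below its low density values, but for both genes the gap between the groups was smaller than the difference between the high density libraries. The ratio of Tsc1 to Tsc2 within a library was 1.11 and 1.28 at high density, against 0.758 and 0.639 at low density, so Tsc2 had the higher TPM at low density and Tsc1 at high density. An exact permutation test of such a ratio over 2 and 2 libraries cannot give a p below 0.333, so none is given. Exons of Tsc2 overlap those of Pkd1 on the opposite strand, and the sources used here do not say whether the counting used strand. Dropping high density library 1 raised the log2 fold change of Tsc1 to 0.70, and dropping library 2 instead lowered it to 0.29.

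The sestrins are stress-induced proteins that bind GATOR2, and Sestrin2 is known as a leucine sensor. Of the 3 sestrin genes 0 were called by limma and 1, Sesn2, had an unadjusted p under 0.05 (0.0399). Sesn2 was at 42.8 and 54.0 TPM at high density, against 34.7 and 27.6 TPM at low density, a ratio of mean TPM of 1.55 without overlap (log2 fold change 0.62 ± 0.27 SE, limma adjusted p = 0.189). Sesn3, known as a FOXO target, was at 81.2 and 93.3 TPM at high density, against 82.6 and 72.0 TPM at low density (log2 fold change 0.17 ± 0.24 SE, limma adjusted p = 0.711), and its sign turned after median centring (−0.0135). The lower high density value fell inside the range of the low density pair.

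Sesn1, known as a p53 target, was the member on which the high density libraries differed in direction. It was at 73.0 TPM in high density library 1 and 41.9 TPM in high density library 2, on either side of the 66.8 and 59.9 TPM of the low density libraries (log2 fold change −0.19 ± 0.29 SE, limma adjusted p = 0.742). Leaving out high density library 1 gave a log2 fold change of −0.58, whereas it was 0.20 when high density library 2 was left out. Sesn2 kept its direction in both cases, at 0.78 once high density library 1 was dropped and 0.46 once library 2 was dropped. Within the summed sestrin TPM, Sesn3 held 41.2% and 49.3% at high density, against 44.9% and 45.1% at low density, and Sesn2 held 21.7% and 28.5% at high density, against 18.9% and 17.3% at low density. Sesn3 was thus the most abundant sestrin in every library by TPM, and Sesn2 was the least abundant in every library except high density library 2, where Sesn1 was.

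DEPTOR, a protein that binds mTOR and inhibits it directly, was encoded by the weakest of these transcripts. Deptor was at 1.46 and 2.34 TPM at high density, against 0.772 and 0.942 TPM at low density. These values were close to the filter of a mean of 1 TPM, which the gene passed only through its high density libraries. Their difference did not pass (log2 fold change 0.63 ± 0.41 SE, limma adjusted p = 0.385).

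In the folliculin arm the partner and the target GTPase rose while folliculin itself did not pass the test. Fnip1 encodes a folliculin-interacting protein that is required for B cell development in mice. It was at 29.4 and 26.3 TPM in the high density libraries, against 12.7 and 9.33 TPM in the low density libraries. Both high density values lay above both low density values by more than the spread within either pair. Mean TPM was 27.8 ± 2.21 at high density, against 11.0 ± 2.37 at low density, a 2.53-fold rise (log2 fold change 1.28 ± 0.29 SE, limma adjusted p = 0.0237).

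Rragd encodes RagD, a GTPase that, with RagA or RagB, recruits mTORC1 to the lysosome. It was at 21.7 and 17.5 TPM in the high density libraries, against 5.49 and 6.19 TPM in the low density libraries. No high density value came near the low density pair. Mean TPM was 19.6 ± 3.02 at high density, against 5.84 ± 0.492 at low density, a 3.36-fold rise (log2 fold change 1.59 ± 0.30 SE, limma adjusted p = 0.0106). RagC, the close relative of RagD, is encoded by Rragc, which was at 69.5 and 91.8 TPM at high density, against 88.3 and 79.7 TPM at low density (log2 fold change −0.07 ± 0.25 SE, limma adjusted p = 0.893). Set over Rragc within the same library, Rragd was at 0.313 and 0.190 at high density, against 0.0622 and 0.0776 at low density.

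Flcn, the gene of folliculin itself, was at 43.0 and 40.4 TPM at high density, against 29.6 and 24.5 TPM at low density. The densities did not overlap, and the ratio of mean TPM was 1.54 (log2 fold change 0.61 ± 0.26 SE, unadjusted p = 0.0376, limma adjusted p = 0.184). Within a library Fnip1 was at 0.684 and 0.650 of the Flcn TPM at high density, against 0.429 and 0.380 at low density. Leaving out low density library 1 ended the calls of Fnip1 and Rragd (limma adjusted p = 0.234 and 0.243), as did leaving out low density library 2 (0.648 and 0.186), when the spread rests on the high density pair, while their log2 fold changes stayed at 1.07 to 1.48 and 1.44 to 1.74 over the 4 ways of leaving out a library. After median centring the adjusted p was 0.0691 for Fnip1 and 0.0604 for Rragd.

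**Figure D2:**
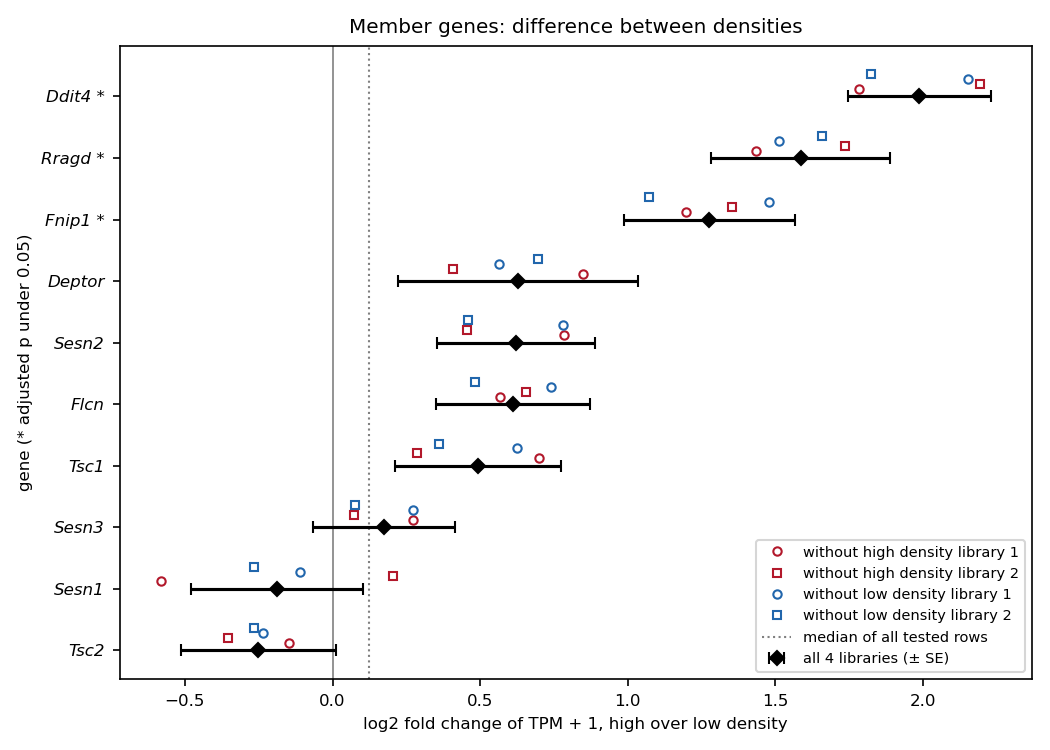
Log2 fold change of TPM + 1, high over low density (horizontal axis), for each of the 10 genes, with diamonds and bars for the value ± SE from all 4 libraries and open symbols for the value without each library. Ddit4 at 1.99, Rragd at 1.59 and Fnip1 at 1.28 lie to the right of 1 under each omission, and the Sesn1 symbols lie on both sides of 0.

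Ordered by TPM at high density, the genes ran Ddit4, Sesn3, Sesn1, Sesn2, Flcn, Tsc1, Fnip1, Tsc2, Rragd and Deptor. At that density the libraries of neighbours overlapped for Sesn1 and Sesn2, Sesn2 and Flcn, Tsc1 and Fnip1, and Fnip1 and Tsc2. At low density the order was Ddit4, Sesn3, Sesn1, Sesn2, Tsc2, Flcn, Tsc1, Fnip1, Rragd and Deptor, and only Sesn2 and Tsc2 overlapped as neighbours. Fnip1 stood above Tsc2 in mean TPM at high density and well below it at low density. Ddit4 made up 84.9% and 81.0% of the summed TPM of the members in the high density libraries, against 62.1% and 59.9% in the low density libraries.

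The rows most like Ddit4 and Rragd across the 4 libraries were found among 9042 named rows whose mean reached 5 TPM, by the Euclidean distance of centred log2 values. Nearest to Ddit4 were Per1, a circadian repressor, at a distance of 0.0832, Pdk1, a kinase that shuts off pyruvate dehydrogenase, at 0.0834, the trypsin gene Prss2 at 0.170, the glycogen synthase gene Gys1 at 0.178 and the retinoic acid receptor gene Rara at 0.191. Reads of Prss2 may be shared with near-identical trypsin copies. Per1 was at 59.8 and 41.7 TPM at high density, against 13.7 and 10.8 TPM at low density. Ratios of mean TPM for these 5 rows ran from 3.77 to 4.50. Nearest to Rragd were the kinase gene Dyrk2 (0.0701), the tetraspanin gene Cd53 (0.0806), the short microRNA row Mir7115 (0.118), the endoribonuclease gene Endou (0.136) and Jmjd6 (0.146), with ratios of 3.03 to 3.23. TPM of a row as short as Mir7115 depends strongly on the length used. Dyrk2 was at 63.0 and 53.5 TPM at high density, against 17.9 and 20.6 TPM at low density. These likenesses describe 4 libraries and carry no test.

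Around the members, 94 other genes of the pathway were listed in 9 groups, also with earlier results of these data known. Of these genes 85 were tested, 8 lay below the filter and 1 was not matched. Among the 85 tested, 8 rose (9.41%) and 0 fell by limma, beside 6.68% of all tested rows called. An unadjusted p under 0.05 was found for 18 of the 85, 3 of them lower, and for 2569 of all 10936 tested rows. Their median log2 fold change of 0.12 equalled that of all tested rows to that precision. The count was 5 without low density library 1, 0 without low density library 2 (limma, with 8 at an unadjusted p under 0.05), and it was 23 or 20 when high density library 1 or 2 was left out. In the core of the machinery 0 genes were called, in lists too short to differ from the 6.68% of all tested rows. Of 9 tested genes of the mTOR complexes 0 were called by limma, with 1 at an unadjusted p under 0.05. This was Rictor, the scaffold of mTORC2 (log2 fold change 0.87 ± 0.26 SE, limma adjusted p = 0.0678), and Mapkap1, another mTORC2 subunit, followed (−0.54 ± 0.25 SE, 0.216). Of 8 Rag and Ragulator genes, with a median of −0.20, 0 were called by limma and 1 had an unadjusted p under 0.05. In that last group Slc38a9, the lysosomal arginine transporter, was at 6.63 and 9.02 TPM at high density, against 3.83 and 3.54 TPM at low density (limma adjusted p = 0.133), and Lamtor4 came next (log2 fold change −0.51 ± 0.25 SE, limma adjusted p = 0.248).

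**Figure D3:**
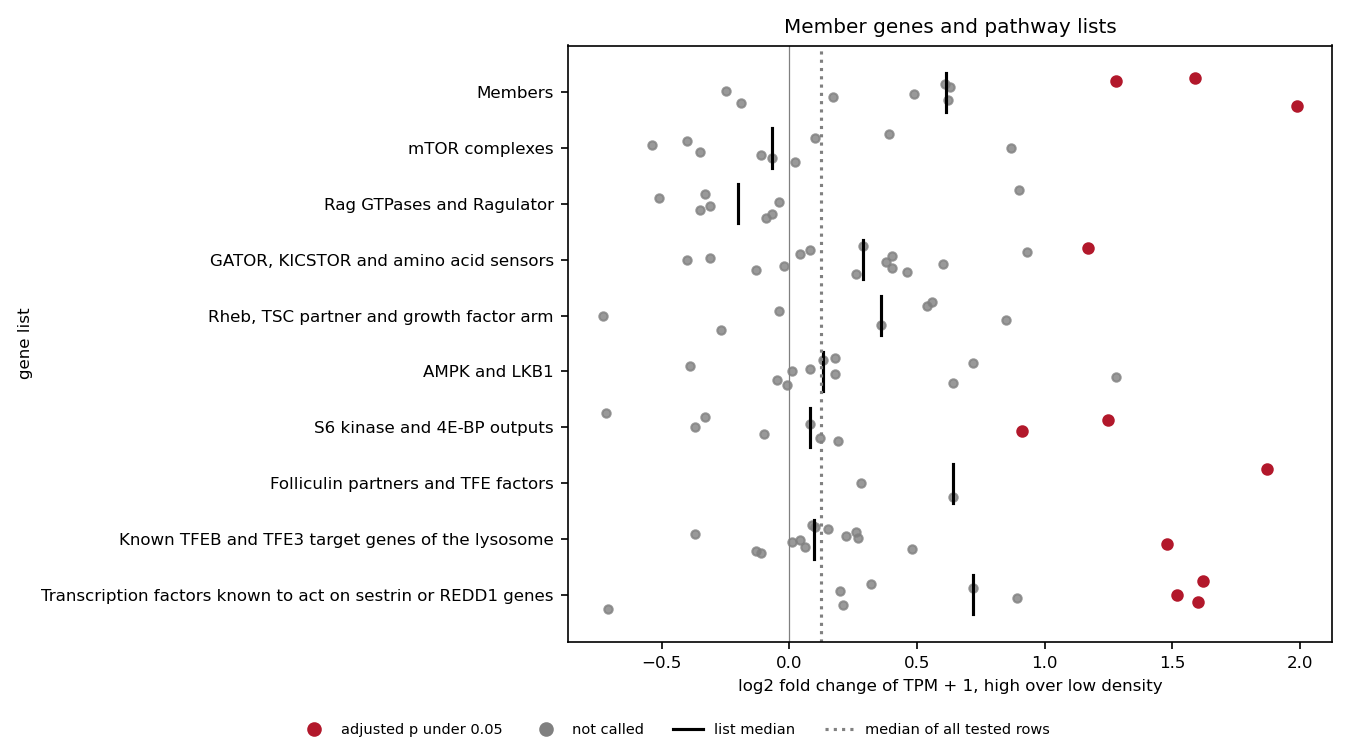
Log2 fold change of TPM + 1, high over low density (horizontal axis), of every tested gene in the member list and the 9 pathway lists (vertical axis), red where called, with a bar for each list's median and a dotted line for the median of all tested rows at 0.12. Called genes lie only on the right, and the Rag and Ragulator list has the lowest median at −0.20.

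Among GATOR, KICSTOR and amino acid sensor genes 1 of 15 rose (6.67%), about the share of all tested rows called (6.68%). This was Bmt2, which encodes SAMTOR, a sensor of S-adenosylmethionine that restrains mTORC1. It was at 29.4 and 33.7 TPM at high density, against 13.1 and 13.9 TPM at low density (log2 fold change 1.17 ± 0.27 SE, limma adjusted p = 0.0271). Of 7 tested genes around Rheb and the growth factor arm 0 were called by limma, with 3 at an unadjusted p under 0.05. Akt1, the kinase that inhibits TSC2, was at 77.4 and 67.5 TPM at high density, against 123 and 118 TPM at low density (limma adjusted p = 0.0870), and Rhebl1, a relative of Rheb, was at 25.6 and 16.2 TPM at high density, against 9.67 and 12.2 TPM at low density (limma adjusted p = 0.130). Of 11 AMPK and LKB1 genes 0 were called by limma, with 2 at an unadjusted p under 0.05. These were Prkab2, an AMPK beta subunit, at 8.11 and 5.10 TPM at high density, against 2.27 and 1.90 TPM at low density (limma adjusted p = 0.0600), and Stradb, an LKB1 partner (log2 fold change 0.72 ± 0.28 SE, limma adjusted p = 0.143). Akt1 (limma adjusted p = 0.0116 and 0.0375), Prkab2 (0.0338 and 0.00608) and Rictor (0.0179 and 0.0165) were called when high density library 1 or 2 was left out, and Prkab2 also in limma without the trend (0.0421). Without high density library 1 or 2, in that order, the log2 fold changes were 1.10 or 0.70 for Slc38a9 and 0.88 or 0.57 for Stradb. For Mapkap1 they were −0.37 or −0.72, and for Rhebl1 0.54 or 1.17.

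Among the substrates and outputs of mTORC1, 2 of 9 rose (22.2%, beside 6.68% of all tested rows called), and both encode repressors of translation. The list had a median log2 fold change of 0.08, with 3 genes at an unadjusted p under 0.05 (limma), 1 of them lower. Pdcd4, an inhibitor of the helicase eIF4A, was at 150.5 and 122 TPM at high density, against 64.0 and 49.7 TPM at low density (log2 fold change 1.25 ± 0.25 SE, limma adjusted p = 0.0137). Eif4ebp1, which encodes a repressor of the cap-binding protein eIF4E, was at 382 and 345 TPM at high density, against 207 and 180.3 TPM at low density (log2 fold change 0.91 ± 0.23 SE, limma adjusted p = 0.0360). Libraries of both genes did not overlap, as was so for 54.7% of all tested rows. Eif4ebp2, a relative of Eif4ebp1, leaned the other way without a call, at 136 and 132 TPM at high density, against 184 and 164 TPM at low density (limma adjusted p = 0.354). So did Ulk1 (log2 fold change −0.72 ± 0.25 SE, limma adjusted p = 0.112).

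Tfeb, the transcription factor that folliculin and RagC or RagD keep under mTORC1 control, had the largest log2 fold change of the 85 genes. It was at 14.4 and 20.5 TPM in the high density libraries, against 4.73 and 3.35 TPM in the low density libraries (ratio of mean TPM 4.32, log2 fold change 1.87 ± 0.33 SE, limma adjusted p = 0.00741). It was the only called gene of 3 tested folliculin partners and TFE factors. Its relative Tfe3 was at 25.1 and 26.6 TPM at high density, against 22.2 and 19.95 TPM at low density (limma adjusted p = 0.566). The 14 tested lysosomal genes known as targets of these factors had a median log2 fold change of 0.09, close to the 0.12 of all tested rows.

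Of 9 transcription factors known to act on Ddit4 or the sestrins, 3 rose (33.3%, beside 6.68% of all tested rows called) and 0 fell. By limma 5 had an unadjusted p under 0.05, 1 of them lower. This was Trp53, the gene of p53, at 161 and 160 TPM at high density, against 277 and 251 TPM at low density (limma adjusted p = 0.0789). Foxo1 leaned higher without a call, at 52.9 and 66.1 TPM at high density, against 32.6 and 30.5 TPM at low density (limma adjusted p = 0.0616). Hif1a and Atf4 were not called (log2 fold change 0.20 ± 0.27 SE and 0.21 ± 0.22 SE, limma adjusted p = 0.693 and 0.623). Nr3c1, the glucocorticoid receptor, was at 204 and 239 TPM at high density, against 82.6 and 61.4 TPM at low density (log2 fold change 1.62 ± 0.25 SE, limma adjusted p = 0.00345). Foxo3, a factor of quiescence and starvation, was at 191 and 102 TPM at high density, against 58.3 and 39.6 TPM at low density (log2 fold change 1.52 ± 0.32 SE, limma adjusted p = 0.0175). Ddit3, the stress factor CHOP, was at 129 and 175 TPM at high density, against 65.6 and 36.3 TPM at low density (log2 fold change 1.60 ± 0.30 SE, limma adjusted p = 0.0106), and its exons overlap those of Mars on the opposite strand. All 8 called pathway genes lost their calls without low density library 2, and calls lost without low density library 1 included those of Bmt2 and Eif4ebp1. After median centring 6 of the 8 lost their calls, all but Tfeb and Nr3c1, and Eif4ebp1 also lost its call in limma without the trend (adjusted p = 0.0841).

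**Figure D4:**
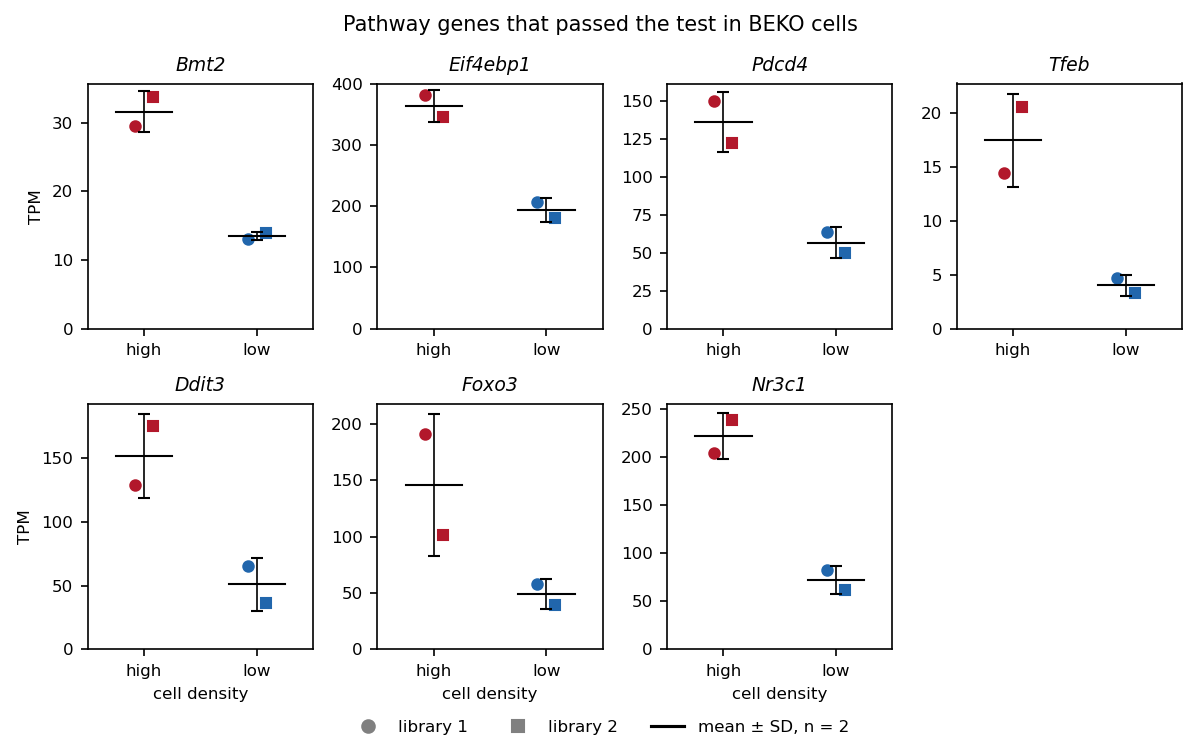
TPM of 7 called pathway genes (vertical axes, starting at 0 and differing between panels) in high and low density libraries, with circles for library 1, squares for library 2 and lines for the mean ± SD of 2 libraries. In every panel both high density points lie above both low density points, as is likely for genes picked for being called higher. Foxo3 shows the widest gap between its high density libraries relative to its mean.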

How the data were processed

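RNA was measured in 4 libraries of BEKO cells. The authors deposited TPM values in a single table, each column summing to the same total. Strand-specific libraries were made from kit-purified RNA, per the labels' protocols. The submitters' processing notes name mm9 and DESeq2 1.2.10 without a role, and no aligner, counter or annotation is named in the sources used here. Columns were tied to samples by the names in their descriptions. TPM keeps no depth, so no counting interval is given, and it is relative to all RNA in the table.

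Tests used log2(TPM + 1), which understates changes of weak genes, on the 10936 rows whose mean reached 1 TPM (14694 lay below), with limma 3.58.1 in R 4.3.3 (group term, mean-variance trend, two-sided) and Benjamini-Hochberg adjustment over all tested rows. Called means an adjusted p under 0.05. Residual degrees of freedom were 2, and moderation added 9.53. Genes named were the members, the called genes of each pathway list (or its 2 of smallest p), and the 5 rows nearest to Ddit4 and to Rragd. A gene set by this rule is not reported here, though it stays in the counts. Rragc and Tfe3 were named beside Rragd and Tfeb after their values were seen. So were Eif4ebp2, Ulk1, Trp53, Foxo1, Hif1a and Atf4, as genes of their lists that were not called. The members and lists were chosen with earlier results of these data known. Of the listed genes, 1 was not found under its symbol and Lars1 was matched to Lars through RefSeq. The fit was tested on simulated data. Alternatives were other pseudocounts (0.1, 5), filters (none, 5 TPM), median centring, quantile normalisation, no trend, leaving out each library and a replicate block.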

Additional observations from a re-analysis of the deposited data

How the results depend on the processing

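Pseudocounts of 0.1 and 5, a mean of at least 5 TPM and limma without the trend kept each of the counts within 1.5 times its value as reported (731 rows, 3 members, 8 pathway genes). With no filter, 0 rows were called by limma (2565 had an unadjusted p under 0.05), and so 0 members and 0 pathway genes (4 and 20 at an unadjusted p under 0.05). Median centring gave 314 rows, 0 members and 2 pathway genes, and quantile normalisation gave 360 rows, 1 member (Ddit4) and 3 pathway genes. The share of higher calls was 68.4% as deposited, 51.0% after median centring and 60.0% after quantile normalisation. The cause of these shifts was not tested. Leaving out 1 library gave 233 to 3270 rows, 1 to 6 members and 0 to 23 pathway genes. A direction turned for Sesn1 without high density library 2 (log2 fold change 0.20, against −0.58 without high density library 1) and for Sesn3 after median centring (−0.0135), with neither turned value past the test. The log2 fold changes of the other 8 members kept their sign under every alternative run.

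Replicate numbers did not pair the libraries by any label, and the differences between library 1 and library 2 at the 2 densities correlated at r = 0.04 over the tested rows, which are not independent. With the replicate block 937 rows, 3 members and 8 pathway genes were called. With 2 libraries per group, reads per library unknown, and Deptor near the filter, small differences such as those of Tsc1, Sesn2 and Flcn were not resolved.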
